A study of Mus musculus with 4 samples.

Results

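The oocyte transcription regulators described here are 8 genes, Figla, Nobox, Lhx8, Sohlh1, Sohlh2, Tbpl2, Taf4b and Sebox, chosen by name, and all 8 were among the 23235 genes of the deposited table. They were read in polyadenylated RNA of mouse oocytes on a C57B6 background, in 4 groups of 1 library each, with 10 oocytes in a library. Deletion oocytes came from Dcaf13fl/fl;Gdf9-Cre mice, where Cre recombinase is made under the Gdf9 promoter, in oocytes from the primordial follicle stage onward, and control oocytes from Dcaf13fl/fl mice without Cre, so both genotypes carry floxed Dcaf13. Fully grown oocytes came from mice of 23 days, 48 h after 5 IU of PMSG, a gonadotropin that stimulates follicle growth, and growing oocytes from mice of 14 days (13.5 to 14.5) without it. The 4 groups are therefore fully grown deletion, fully grown control, growing deletion and growing control oocytes.

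These genes belong to the small set of factors that set up the transcription programme of the egg. FIGLA, SOHLH1 and SOHLH2 are basic helix-loop-helix proteins, which bind short E-box motifs as dimers. NOBOX, LHX8 and SEBOX are homeodomain proteins. TBPL2 and TAF4B are germ cell versions of basal factors, paralogs of the TATA-binding protein TBP and of the TFIID subunit TAF4. In mice, loss of Figla, Nobox, Lhx8, Sohlh1 or Sohlh2 stops follicles at or before their first stages, while Tbpl2 is needed for transcription in the growing oocyte and Sebox for the early embryo. Oocytes near the end of growth largely stop transcription and live on stored RNA.

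Promoter sequences are shown for the 4 members that differ most in the results below. Figla and Tbpl2 were lower at the end of growth in both genotypes, with the larger changes in deletion oocytes. Sebox values ran the other way, and the Sohlh1 signal stood in a single library. Each sequence is the run of 250 bases before the RefSeq start of the gene in GRCm38.p6, 5′ to 3′ on the strand of the gene, and 7 of the 8 members had an entry. The windows lie at chr6:86016941-86017190 on the plus strand (Figla), chr2:24096596-24096845 on the minus strand (Tbpl2), chr11:78503263-78503512 on the plus strand (Sebox) and chr2:25847249-25847498 on the minus strand (Sohlh1). Capitals mark matches on either strand to the E-box CANNTG, the motif of helix-loop-helix factors.
Figla: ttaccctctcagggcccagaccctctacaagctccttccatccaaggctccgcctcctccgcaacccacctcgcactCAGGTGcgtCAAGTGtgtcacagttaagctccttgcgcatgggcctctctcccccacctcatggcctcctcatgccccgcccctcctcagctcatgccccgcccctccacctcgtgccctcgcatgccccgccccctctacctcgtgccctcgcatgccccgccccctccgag
Tbpl2: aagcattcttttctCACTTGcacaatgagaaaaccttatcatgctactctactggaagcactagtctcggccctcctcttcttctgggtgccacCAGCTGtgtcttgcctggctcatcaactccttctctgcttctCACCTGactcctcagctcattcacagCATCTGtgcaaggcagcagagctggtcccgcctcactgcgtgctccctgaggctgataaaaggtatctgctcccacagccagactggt
Sebox: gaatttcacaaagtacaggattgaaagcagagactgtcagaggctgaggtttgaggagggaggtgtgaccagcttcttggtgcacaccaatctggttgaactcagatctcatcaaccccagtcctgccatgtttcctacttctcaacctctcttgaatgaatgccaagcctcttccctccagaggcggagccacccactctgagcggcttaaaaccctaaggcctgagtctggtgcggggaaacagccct
Sohlh1: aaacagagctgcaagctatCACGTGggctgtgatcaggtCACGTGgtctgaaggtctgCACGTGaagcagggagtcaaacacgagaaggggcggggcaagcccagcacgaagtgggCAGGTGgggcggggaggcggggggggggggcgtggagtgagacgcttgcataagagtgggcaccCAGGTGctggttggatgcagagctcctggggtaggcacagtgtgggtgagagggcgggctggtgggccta
The Tbpl2 window held 4 E-boxes, the Figla window 2 and the Sebox window 0, and the Nobox, Sohlh2 and Lhx8 windows, not shown, held 2, 1 and 0. The Sohlh1 window held 5, of which 3 read CACGTG. Among 32851 promoter windows of this length, 66.2% held a CANNTG, 3.84% held 4 or more and 0.0609% held CACGTG 3 times or more, the last count being made after the Sohlh1 sequence was seen. A motif of NOBOX, TAATTG, was found in 7.17% of all windows and its variant, which reads TAATTA, in 4.84%. A motif of LHX8, given as TGATTG, was found in 12.7%, and the letters of a TATA box, TATAA, in 22.8%. On either strand none of the 7 windows of members held any of these. These are matches of letters, and binding was not measured.

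The symbols of the deposited table had to be re-paired with its values before any member could be read. Symbols stand in an order that ignores case and values in byte order, so the rows of all 8 members hold the values of other genes as deposited. The row named Figla holds 0.0244, 0, 0.0619 and 0.0229 FPKM (fully grown deletion, fully grown control, growing deletion, growing control), which belong to Fign in byte order, and the row named Tbpl2 holds the values of Tbrg1. Re-pairing moved 19122 rows and left 4113, Dcaf13 among them. A check that uses no expression marker gave the same reading: the smallest value above 0 of genes under 1 FPKM, about the worth of 1 fragment, should be lower for longer transcripts, and its correlation with length across genes (logs of both) was -0.28 over 6127 genes after re-pairing and -0.13 over 6137 as deposited. The pairing is an inference from the values. By the deposited mm9 coordinates Figla lies at chr6:85967185-85970990 and Sebox at chr11:78317015-78318584, both on the plus strand, and Tbpl2 at chr2:23927241-23952115 on the minus strand. None of the 8 members overlaps another gene of the table.

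Dcaf13 itself stood at 64.0 FPKM in fully grown deletion and 160.2 in fully grown control oocytes, and at 38.9 in growing deletion and 96.1 in growing control oocytes. Its signal was thus lower but not absent in both deletion libraries. Values are given per gene, so intact RNA and RNA without the floxed part cannot be told apart. The 7 oocyte markers were all present, with sums from 13874 to 15416 FPKM per library. Granulosa and cumulus markers, those of the cells that surround the oocyte, summed to 29.3 FPKM in fully grown deletion, 27.8 in fully grown control, 17.6 in growing deletion and 34.8 in growing control oocytes. Of these 10 markers 6 reached 1 FPKM in some library. Cyp19a1 was the highest, at 7.75 to 19.0 FPKM, while Inha lay at 2.16 to 6.53 and Nr5a2 at 3.62 to 5.87. Inhba, Fshr and Kitl reached at most 1.11, 1.25 and 1.42 FPKM, and Foxl2 and Amh stayed at or under 0.367 FPKM. Theca and stroma markers summed to at most 1.35 FPKM, with Lum at 0, blood and immune markers to at most 3.58, and endothelial markers to between 11.9 and 18.8, nearly all of it Pecam1 with Cdh5 at 0. Low genes gave depths of 1.11 (fully grown deletion), 1.02 (fully grown control) and 1.04 (growing deletion) relative to growing control. The absolute depth is not given.

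The members covered a wide range of levels, with Nobox first in every library and both Sohlh genes at the bottom. FPKM is scaled to transcript length but not to GC content, so an order of different genes by FPKM is only approximate. Nobox ranged from 197 to 421 FPKM over the 4 libraries, Figla from 83.0 to 191, Lhx8 from 80.3 to 153, Sebox from 23.5 to 55.4, Tbpl2 from 9.35 to 24.7 and Taf4b from 3.15 to 6.84. Nobox did not overlap its neighbours in that order, whereas Figla overlapped Lhx8, and Sebox overlapped Tbpl2. The order changed between libraries accordingly: Figla was above Lhx8 in all but fully grown deletion oocytes, and Sebox was above Tbpl2 in all but growing deletion oocytes. In growing control oocytes only 399 genes had a higher FPKM than Nobox, against 10531 above Sohlh2. With 1 library per group none of these levels has an error of its own, and no test was run.

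**Figure D1:**
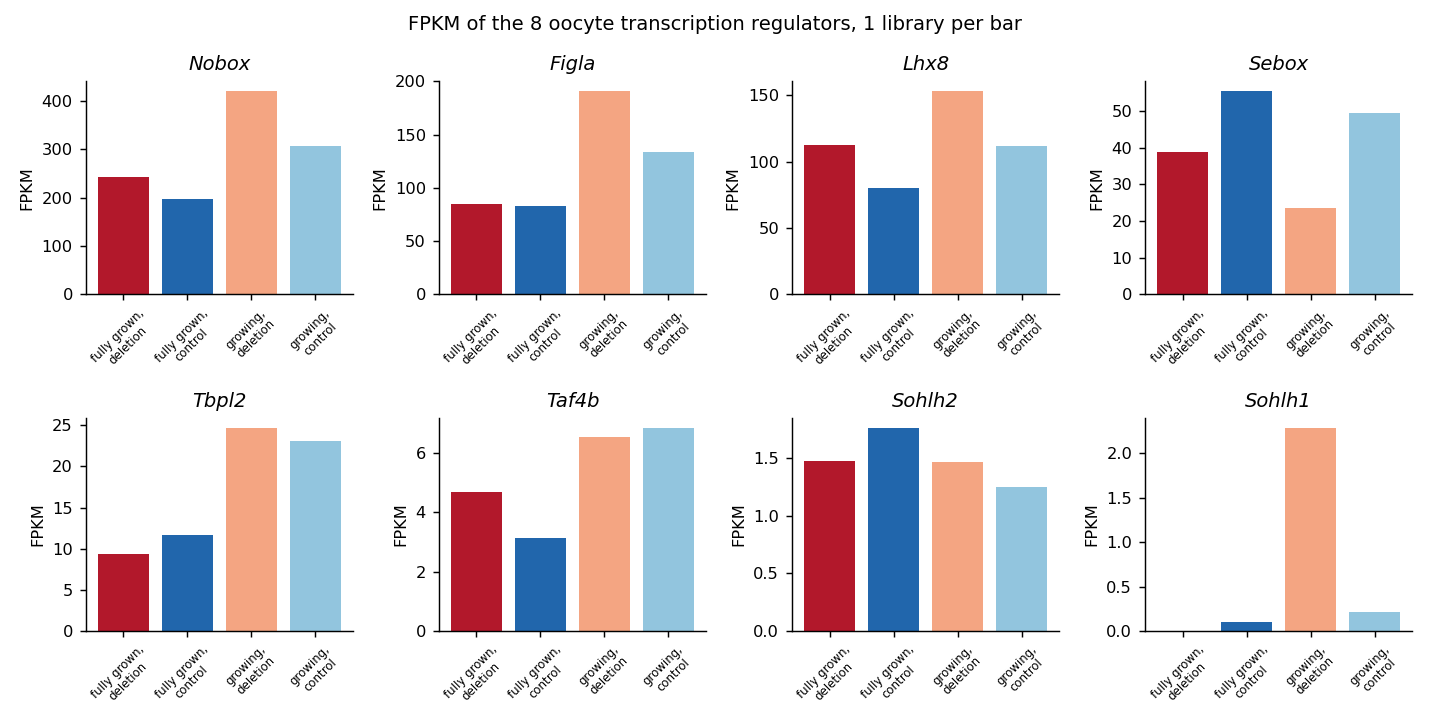
FPKM of each regulator (vertical axis, linear from 0, a scale of its own per panel) in the 4 libraries (horizontal axis), with 1 bar for each library and no error since groups have 1 library. Nobox reaches 421 FPKM in growing deletion oocytes, and Sohlh1 is visible mainly in that library, at 2.29 FPKM.

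Changes are given as differences in log2(FPKM + 1), on which low genes show less than their true change. A gene counts as higher or lower by a size rule when either library reaches 5 FPKM and the change is 1 or more in size. The rule compares 2 libraries, not 2 conditions, and FPKM gives a share of each library's RNA, so a lower value cannot be told apart from more RNA of other genes.

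Over growth in deletion oocytes, 2 of the 6 members at the minimum, Tbpl2 and Figla, were lower by the size rule and none was higher, where 8.75% of all 7957 genes were lower and 2.7% higher. Tbpl2, the TBP paralog that serves oocyte promoters, stood at 9.35 FPKM in fully grown deletion oocytes, against 24.7 in growing deletion oocytes, a change of -1.31. Figla, the helix-loop-helix factor that drives the zona pellucida genes, had 84.5 FPKM there, against 190.9 in growing deletion oocytes, a change of -1.17. Of all genes tested, 4.61% had a more negative change than Tbpl2 and 6.17% a more negative one than Figla.

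The other members at the minimum kept inside the rule, with the homeodomain genes Nobox and Lhx8 below 0 and Sebox above it. Nobox was at 242.6 FPKM in fully grown deletion oocytes, against 420.5 in growing deletion oocytes (-0.79), and Lhx8 at 112.4 against 153.2 (-0.44). Without the trend with GC content and length these changes were -0.56 for Nobox and -0.26 for Lhx8. Taf4b was at 4.68 against 6.54 FPKM (-0.41) and reached the minimum only through the growing library. Sebox, the homeodomain gene of the early embryo, was at 38.8 FPKM in fully grown deletion oocytes, against 23.5 in growing deletion oocytes, a change of 0.70 that 5.59% of genes exceeded. The median change of the 6 members was -0.62, beside -0.07 over all genes tested, and without the trend -0.46, beside 0.06. After removal of that trend, 258 genes were higher and 493 lower in place of 215 and 696, with Tbpl2 and Figla still among the lower ones.

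Over growth in control oocytes none of the 6 members at the minimum was past the size rule, although 5 of them lay below 0. By that rule 3.07% of 7661 genes were lower and 1.11% higher. Tbpl2 was at 11.6 FPKM in fully grown control oocytes, against 23.0 in growing control oocytes, a change of -0.93 just short of the rule, with 3.80% of genes more negative. Taf4b, the germ cell TFIID subunit, was as close to it, at 3.15 FPKM in fully grown control oocytes, against 6.84 in growing control oocytes (-0.92), again at the minimum through the growing library alone. Tbpl2 was past the rule once the trend with GC content and length was removed (-1.06), and Taf4b with a pseudocount of 0.1 (-1.10).

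The 3 factors with the highest levels were lower at the end of growth in controls, all within the rule. Before removal of that trend their changes were smaller than those of Tbpl2 and Taf4b. Figla stood at 83.0 FPKM in fully grown control oocytes, against 133.9 in growing control oocytes (-0.68). Without the trend Figla had -0.94, a larger change than that of Taf4b (-0.85). Nobox stood at 197.3 against 306.4 FPKM (-0.63), and Lhx8 at 80.3 against 112.0 (-0.47). Without the trend these changes were smaller, at -0.46 for Nobox and -0.34 for Lhx8. Sebox was nearly level, at 55.4 FPKM in fully grown control oocytes and 49.6 in growing control oocytes (0.16). The median change of the 6 members was -0.66, beside -0.06 over all genes tested. The growth comparisons of the 2 genotypes share no library. In each, 5 of the 6 members were below 0, Taf4b among them through a minimum met only in the growing library, where 44.1% (deletion) and 43.9% (control) of all genes were above 0. Stage, age and PMSG cannot be told apart in either.

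**Figure D2:**
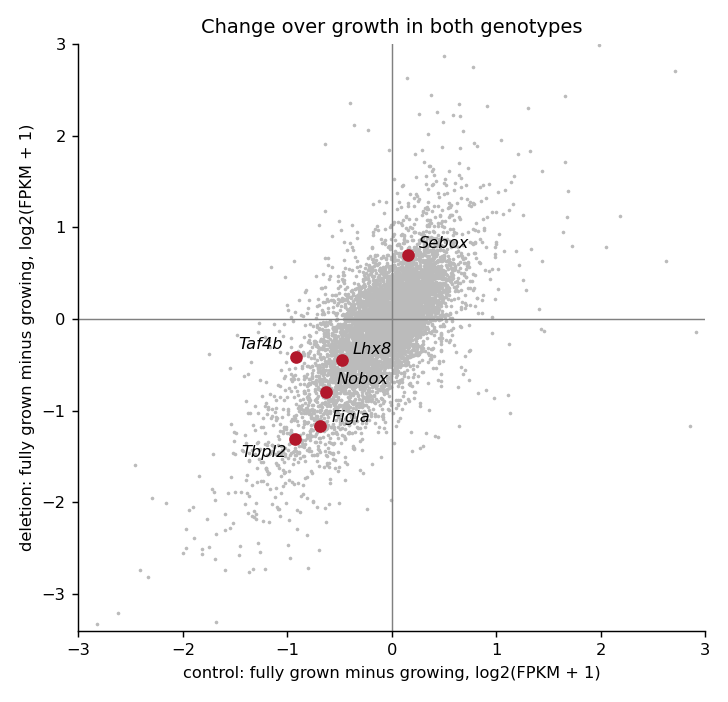
Change from growing to fully grown oocytes in control (horizontal axis) and deletion (vertical axis), both in log2(FPKM + 1), for 7383 genes that reach 5 FPKM in both comparisons (grey) and the 6 members among them (red); 19 genes lie outside the axes. Tbpl2, Figla, Nobox, Lhx8 and Taf4b lie below 0 on both axes and Sebox above 0 on both.

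Deletion against control in growing oocytes left 1 of the 6 members at the minimum past the size rule: Sebox was lower, where 2.51% of 8010 genes were lower and 2.62% higher. Sebox stood at 23.5 FPKM in growing deletion oocytes, against 49.6 in growing control oocytes, or 47.4% of control (-1.05 on the log2 scale). Of all genes tested, 2.31% had a more negative change. The nearest genes to Sebox by the deposited coordinates did not share this: Vtn, on the same strand at a distance of 1188 bases, was at 2.96 FPKM in growing deletion and 2.68 in growing control oocytes, and Tmem199, on the other strand, at 95.4 and 85.4. Granulosa markers were lower in the same library (17.6 against 34.8 FPKM summed), and their part in the Sebox value was not tested. Among them Cyp19a1 (-1.10) and Inha (-1.25) were past the size rule, Inha with a minimum met only in the control library.

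Figla, Nobox and Lhx8, the factors of the follicle-forming network, lay above control together in growing oocytes, though inside the rule. Figla was at 190.9 FPKM in growing deletion oocytes, against 133.9 in growing control oocytes, 1.43-fold (0.51 on the log2 scale). Nobox was at 420.5 against 306.4 FPKM, 1.37-fold (0.46), and Lhx8 at 153.2 against 112.0, also 1.37-fold (0.45). Between 13.1% and 16.4% of genes had a more positive change, so values of this size were common in the comparison. The basal factors were close to control, Tbpl2 at 24.7 against 23.0 FPKM (0.09) and Taf4b at 6.54 against 6.84 (-0.06). The median of the 6 members was 0.27, beside 0.08 over all genes. Across genes the change went with GC content of the transcript (Spearman's rho 0.36 over 7934 genes, a description) and less with its length (-0.15). For GC content rho was 0.39 for deletion in fully grown oocytes, and over growth -0.23 in the deletion and -0.30 in controls. After removal of the trend with GC content and length, Figla, Nobox and Lhx8 had changes of 0.32, 0.31 and 0.36 and Sebox -1.22. By the rule 123 genes were then higher and 210 lower in place of 210 and 201.

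In fully grown oocytes none of the 5 members at the minimum was past the rule, where 1.09% of 7413 genes were lower and 1.08% higher (98 and 63 genes after median-ratio rescaling, in place of 81 and 80). Sebox was again below control, at 38.8 FPKM in fully grown deletion and 55.4 in fully grown control oocytes (70.0% of control, -0.50), with 6.93% of genes more negative. Lhx8 was again above it, at 112.4 and 80.3 FPKM (1.40-fold, 0.48), with 10.1% of genes more positive. Nobox was at 242.6 FPKM in fully grown deletion and 197.3 in fully grown control oocytes (0.30). Figla was almost level, at 84.5 and 83.0 FPKM (0.03, and -0.04 after rescaling by the median ratio). Tbpl2 was at 9.35 and 11.6 FPKM (-0.29, and -0.14 without the GC and length trend). Taf4b was under 5 FPKM in both libraries, at 4.68 and 3.15.

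Set side by side, the deletion changes at the 2 stages, which share no library, had the same sign for Sebox, Lhx8, Nobox and Figla, although for Figla the fully grown change turned negative after median-ratio rescaling. The fully grown change minus the growing change was 0.54 for Sebox, -0.48 for Figla (-0.28 without the GC and length trend), -0.38 for Tbpl2, -0.16 for Nobox and 0.03 for Lhx8. Of the 7188 genes at the minimum at both stages, 15.6% had a larger difference than Sebox in absolute size and 92.9% a larger one than Lhx8. The same share was 19.2% for Figla, 28.5% for Tbpl2 and 63.6% for Nobox. These differences have no error, and each shares its libraries with the growth comparisons: the low Sebox value of growing deletion oocytes enters both its deletion change at that stage and its change over growth in the deletion.

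**Figure D3:**
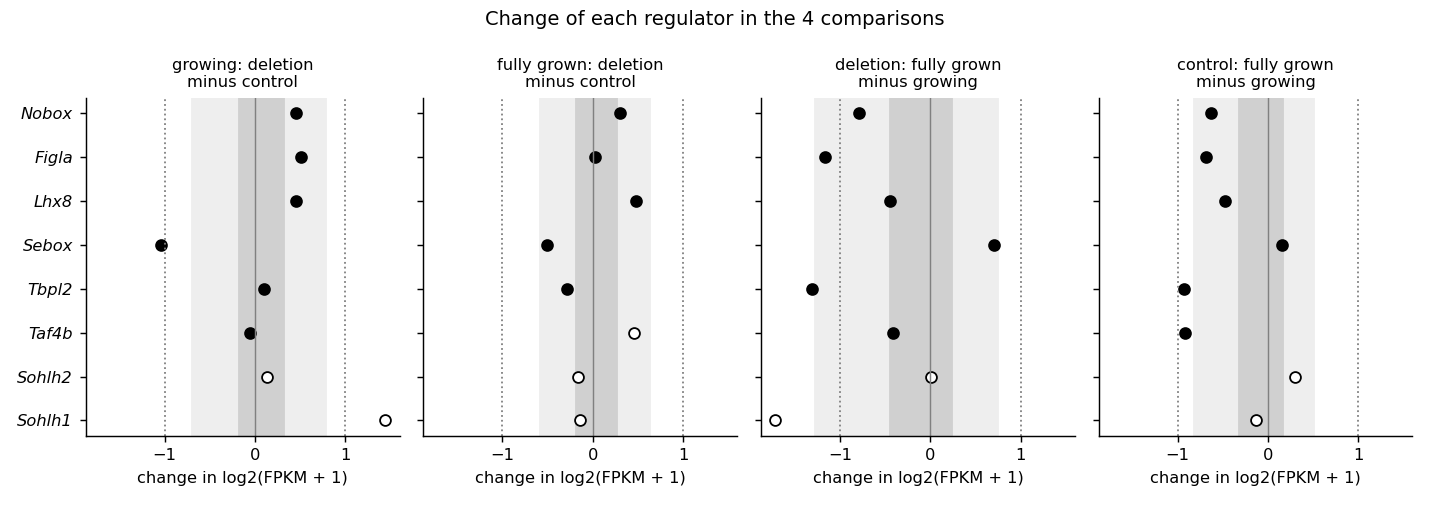
Change in log2(FPKM + 1) of each regulator (rows) in the 4 comparisons (panels), with the middle 50% (dark grey) and the middle 90% (light grey) of all genes tested; open circles are members under 5 FPKM in both libraries and dotted lines mark changes of -1 and 1. Sebox at -1.05 in growing oocytes and Tbpl2 at -1.31 and Figla at -1.17 over growth in the deletion lie past the lower line.

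The Sohlh genes, which act in the first oocytes of the ovary, were low throughout and at the minimum in no comparison. Sohlh2 stood at 1.47 FPKM in fully grown deletion, 1.76 in fully grown control, 1.46 in growing deletion and 1.25 in growing control oocytes, a range of 1.41-fold. Sohlh1 was listed at 0 in fully grown deletion oocytes and stood at 0.102 FPKM in fully grown control, 2.29 in growing deletion and 0.211 in growing control oocytes. Growing deletion oocytes were thus the only library with Sohlh1 above 1 FPKM. Among 301 genes under 1 FPKM with transcripts of nearly the same length, the smallest value above 0 had a median of 0.0939 FPKM, so the value in fully grown control oocytes is about the size that 1 fragment gives. The nearest genes, Kcnt1, Lcn9 and Glt6d1, were listed at 0 in growing deletion oocytes.

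TBPL2 and TAF4B have broadly expressed paralogs, and the FPKM of these differed less between stages. Protein was not measured, so the RNA ratios below do not give protein ratios. Tbp, named here as the paralog of a member, was at 57.7 FPKM in fully grown deletion, 58.5 in fully grown control, 60.0 in growing deletion and 52.1 in growing control oocytes. The FPKM of Tbpl2 was therefore 0.162 and 0.199 of that of Tbp in fully grown deletion and fully grown control oocytes, against 0.411 and 0.443 in growing deletion and growing control oocytes. Taf4a, named for the same reason, lay between 16.0 and 19.7 FPKM, and the ratio of Taf4b to it was 0.237 and 0.197 in fully grown deletion and control, against 0.381 and 0.407 in growing deletion and control oocytes. Another germ cell paralog, Gtf2a1l of the factor TFIIA, with which TBPL2 works, had 1.60 and 1.98 times the FPKM of Gtf2a1 in fully grown deletion and control, against 4.82 and 3.56 times in growing deletion and control oocytes. Here the broadly expressed paralog differed as well. Gtf2a1 was at 31.1 and 31.8 FPKM in fully grown deletion and control, against 19.2 and 24.9 in growing deletion and control oocytes. All 3 germ cell paralogs thus had a lower ratio to their broadly expressed paralog in each fully grown library than in either growing one. How often other pairs of genes show this was not counted. The Tbpl2 and Taf4b ratios largely repeat the lower values of these genes over growth, and Taf4b was under 5 FPKM in both fully grown libraries.

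**Figure D4:**
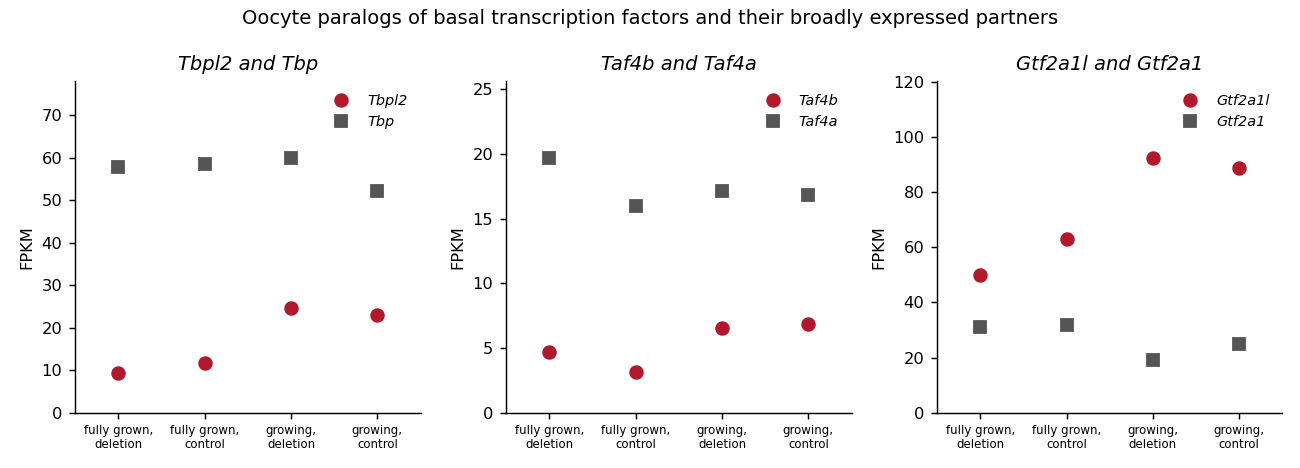
FPKM (vertical axis, linear from 0) of Tbpl2, Taf4b and Gtf2a1l (red circles) and of their broadly expressed paralogs Tbp, Taf4a and Gtf2a1 (grey squares) in the 4 libraries, 1 point per library. Tbpl2 lies at 9.35 and 11.6 FPKM in the fully grown libraries and at 24.7 and 23.0 in the growing ones, while Tbp lies between 52.1 and 60.0 in all 4.

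The wider sets of partners showed no member past the size rule in the TFIID and TBP family or in TFIIA and TFIIB, in any of the 4 comparisons. Since between 1.08% and 8.75% of all genes were past it in a given direction, so few genes could all fall short without standing apart. Of the 16 TFIID and TBP family genes 13 were at the minimum, and their median change was 0.19 over growth in the deletion, 0.14 over growth in controls, 0.01 for deletion in growing oocytes and -0.02 for deletion in fully grown oocytes. The most abundant by symbol were Taf9, Taf12 and Taf10, but the deposited description of Taf9 names adenylate kinase isoenzyme 6. Its values therefore cannot be assigned to the TFIID subunit alone. Taf9 was at 306 FPKM in fully grown deletion, 320 in fully grown control, 239 in growing deletion and 238 in growing control oocytes. TFIIB itself, encoded by Gtf2b, was at 633, 658, 455 and 564 FPKM in the same libraries.

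FIGLA dimerises with E proteins, and Id proteins can block such dimers. Tcf3, which encodes the known E protein partner of FIGLA, stood at 10.7 FPKM in fully grown deletion, 7.34 in fully grown control, 16.5 in growing deletion and 9.81 in growing control oocytes, within the rule in all 4 comparisons. Tcf12, another E protein gene, was lower over growth in the deletion, at 1.97 against 5.04 FPKM (-1.02), where it met the minimum only through the growing library. In controls it was at 1.84 FPKM in fully grown, against 4.43 in growing oocytes (-0.93), under the minimum in both. Id3 was lower over growth in both genotypes, at 13.1 FPKM in fully grown deletion, against 98.1 in growing deletion oocytes (-2.81), and at 20.3 in fully grown control, against 106.8 in growing control oocytes (-2.34). Of the 7 E protein and Id genes, 3 reached the minimum over growth in the deletion and 2 in controls. Lower by the size rule were 2 of the 3 in the deletion and 1 of the 2 in controls, where 8.75% and 3.07% of all genes were lower.

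The oocyte genes whose RNA depends on these factors in knockout mice were all 12 at the minimum and within the size rule in all 4 comparisons, a count of 0 that is near the share of all genes past it. Their median change was -0.26 over growth in the deletion and -0.20 over growth in controls, and -0.01 for deletion against control at either stage. The zona pellucida genes, classical FIGLA targets, lay below their growing values: Zp3 was at 3756 FPKM in fully grown deletion, 2964 in fully grown control, 5080 in growing deletion and 4183 in growing control oocytes. Zp1 and Zp2, named for that reason, changed by -0.50 and -0.73 over growth in the deletion and by -0.70 and -0.51 in controls. Oosp1, a secreted oocyte protein gene, lay above its growing values, at 3227 FPKM in fully grown deletion, 3742 in fully grown control, 2123 in growing deletion and 2481 in growing control oocytes. H1foo, the linker histone of oocytes, was at 5163, 5519, 4236 and 5555 FPKM in the same order.

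The genes whose pattern over the 4 libraries came closest to each member were found by the root mean square difference of log2(FPKM + 1) after subtraction of each gene's mean, among 6465 genes at 5 FPKM or more in every library. They were Mterfd1 for Figla (0.02), Htra2 and Tufm for Nobox (0.02 for both), 1600002D24Rik and Lmf2 for Lhx8 (0.03 for both), Vrtn and Kdm1b for Tbpl2 (0.06 for both), Zfp513 and Daxx for Taf4b (0.04 and 0.06), and Nhej1 and Prc1 for Sebox (0.04 and 0.06). Over these 4 libraries 96 genes lay within 0.1 of Nobox and 8 within 0.1 of Tbpl2. Among the members themselves Nobox was nearest to Lhx8 and Figla (0.14 for both). Of the 6465 genes, however, 235 were closer to Nobox than Lhx8 was, and 245 were closer than Figla. Sebox was 0.73 or more from every other member.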

How the data were processed

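The deposited values are FPKM, which the authors made per library from Smart-seq2 cDNA of 10 oocytes. Per the submitters' processing notes the tools were Cufflinks 2.2.1, TopHat2 2.0.11, Bowtie2 2.1.0 and CASAVA 1.8 and the build was mm9, with no roles stated. How strand and filters were handled is not given in the sources used here. Each per-sample table repeats its column of the whole-series table, which has 23235 distinct symbols. Symbols in byte order were paired with the values in file order. Changes are log2(FPKM + 1) differences over all genes, computed with Python 3.11.15, numpy 2.4.6 and pandas 2.3.3. The size rule needs 5 FPKM in 1 of the 2 libraries and a change of 1. No test and no count model was run, since 1 library per group leaves no error within a group. An additive fit of genotype and stage would leave 1 residual degree of freedom and count any difference between stages as error. Scripts were tested on simulated data with 200 changed genes. Transcript length and GC content came from the longest GENCODE M21 transcript of a symbol, for 99.0% to 99.1% of the genes tested in each comparison, and promoters from RefSeq on GRCm38.p6. Named are the 8 members, list genes past the rule or among the 3 most abundant of a list, 2 genes of nearest pattern per member (1 of them is not reported here), and others where stated. The members and lists were chosen with earlier results of these data known.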

Additional observations from a re-analysis of the deposited data

Results flagged for a closer look

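The deletion changes of 4 members had opposite signs at the 2 stages. With 1 library per group this needs no more than a sign, and the difference was not tested. The fully grown change minus the growing change was -1.58 for Sohlh1, which was under 5 FPKM in all 4 libraries, and -0.29 for Sohlh2, also under that level. The Sohlh1 value depends on the pseudocount and was -3.95 with 0.1. The same difference between stages was -0.38 for Tbpl2 and 0.51 for Taf4b, which was under 5 FPKM in both fully grown libraries. The growing change of Taf4b was close to 0, at -0.06, and -0.007 without the trend with GC content and length.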

How the results depend on the processing

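No analysis paired by replicate was possible because each group has 1 library. Pairing the genotypes by stage would leave 1 residual degree of freedom and was not run. With 1 library per group there was no replicate to leave out. Of the 32 changes of single members, 30 kept their sign under a pseudocount of 0.1, median-ratio rescaling, a minimum of 1 FPKM, no minimum and subtraction of the trend with GC content and length. The exceptions were Figla in fully grown deletion against control oocytes (-0.04 after rescaling) and Sohlh1 over growth in controls (0.07 without the trend). With a minimum of 1 FPKM or none, 1 member, Sohlh1 (1.44), was higher in growing deletion oocytes in place of 0, and 3 in place of 2 were lower over growth in the deletion, again through Sohlh1 (-1.72). Over growth in controls 1 member was lower in place of 0 with a pseudocount of 0.1 (Taf4b) and without the trend (Tbpl2). The median of the members in fully grown deletion against control oocytes, 0.0257, was -0.0359 after rescaling and -0.0569 with no minimum. As deposited, with rows that hold other genes' values, no member was lower in growing deletion oocytes (0 in place of 1) or over growth in the deletion (0 in place of 2), and the medians over growth were -0.18 in the deletion and -0.0850 in controls; the construction of that alternative shows the cause. Over all genes, a minimum of 1 FPKM gave 370 higher and 330 lower genes (210 and 201 at 5 FPKM) for deletion in growing oocytes, 143 and 133 (80 and 81) in fully grown oocytes, 355 and 1101 (215 and 696) over growth in the deletion, and 133 and 425 (85 and 235) over growth in controls. Without replicates, and with depth known only in relative terms, differences under or past the size rule cannot be separated from library noise.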

Other observations

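Among other regulators of germ cells 1 gene was past the size rule. Ddx4, which encodes the germ cell RNA helicase VASA, was lower over growth by the size rule in both genotypes, at 17.1 FPKM in fully grown deletion, against 81.1 in growing deletion oocytes (-2.18), and at 19.2 in fully grown control, against 48.5 in growing control oocytes (-1.30). The zinc finger gene Sall4 was at 249 FPKM in fully grown deletion, 308 in fully grown control, 274 in growing deletion and 301 in growing control oocytes. Dazl, an RNA-binding protein gene, lay between 171 and 201 FPKM, and Ybx2, a gene of RNA storage, between 112 and 189, with a change of -0.59 over growth in controls and of 0.54 for deletion in fully grown oocytes. Of the 7 genes in this list, all at the minimum, Ddx4 was the only one past the rule, with 8.75% of all genes lower over growth in the deletion and 3.07% in controls.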
